A study of Oryza sativa with 10 samples.

Results

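The comparison described here is between the leaf and the root of rice seedlings aged 7 days (Oryza sativa, japonica cultivar Zhonghua 11), taken from a series that also profiled a whole 10-day seedling, embryo and endosperm. It was defined by the labels alone: the 2 leaf arrays against the 2 root arrays, that is 4 of the 10 arrays, over every probe set that is not a control. Plants grew in a phytotron under a day and night temperature cycle, without a stated treatment, and total RNA was hybridised to the Affymetrix rice genome array, which carried 57258 non-control probe sets. Each tissue had 2 arrays, described as biological repeats. The labels give neither the part of the leaf or root that was cut, nor the growth medium, the hour of harvest or whether remains of the seed were attached.

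A leaf cell builds chloroplasts, which capture light, fix carbon and supply sugars to the rest of the plant, and its genes for photosynthesis are switched on in light by factors such as the GLK proteins. A root takes up water and minerals through aquaporins and ion transporters, and in rice it is known for an unusually strong uptake of silicon. Its endodermis is sealed by the Casparian strip, so that solutes must pass through the transporters of its cells, and young rice roots also make diterpenoid defence compounds.

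Signals below are the deposited MAS5 signals after each array was scaled to a trimmed mean of 500, in arbitrary units. A level is not compared between genes, because probe sets differ in brightness. Differences are leaf minus root on the log2(signal + 16) scale, which shortens the difference of a gene with a low signal on either side. They are given with their standard error (SE) from limma over all 10 arrays, with 2 arrays a side, and a probe set is called at a Benjamini-Hochberg adjusted p below 0.05 and a change of at least 2-fold. A gene is represented by 1 probe set, with its other tested probe sets given where they went otherwise. The SE and p-values rest on the spread between repeats that the labels call biological. That spread is pooled over all tissues of the series, so it is not the spread of leaf and root alone. In bulk tissue, fewer cells of a type and less RNA per cell cannot be told apart.

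Of 30014 probe sets with enough signal to be tested, 5935 (19.8%) were called. Of these, 3274 (10.9% of those tested) were higher in leaf and 2661 (8.87%) were lower, so that 55.2% of the calls were higher. They belonged to 2108 and 1671 annotated genes. Among them, 313 were at least 16-fold higher in leaf and 234 at least 16-fold lower. The shares of 10.9% higher and 8.87% lower are the background for the calls of every gene list below. Both leaf arrays lay above both root arrays at 29.3% of the tested probe sets and below both at 33.5%, which is the background for every gene described below as free of overlap. The median difference of all tested probe sets was -0.05. Scaling to the array median moved that median to 0.25 and the split to 4316 higher and 1792 lower, which is 70.7% higher. Scaling to the median of the tested probe sets, chosen after seeing the data, moved it to -0.21 with 2782 higher and 3290 lower, which is 45.8% higher. Without leaf repeat 1 the counts fell to 1573 and 1125, and without leaf repeat 2 to 1621 and 1195.

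The root repeats differed more from each other than the leaf repeats did. Root repeat 1 and root repeat 2 lay at least 2-fold apart at 25.0% of the tested probe sets, against 3.39% for the leaf pair, and their log2 signals correlated at Pearson's r = 0.905 against 0.983 across probe sets, which are not independent. The RNA quality reading also set root repeat 1 apart. The ratio of the 3′ to the 5′ Gapdh control probe set, which grows as RNA is degraded, was 2.04 in root repeat 1, 24.0 in root repeat 2, 26.3 in leaf repeat 1 and 29.1 in leaf repeat 2. Its part in the differences below was not tested beyond the values given.

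Every difference was therefore set against each root array on its own. Leaf against root repeat 1 alone gave 3964 higher (13.2%) and 3287 lower (11.0%), and leaf against root repeat 2 alone gave 3081 higher (10.3%) and 2034 lower (6.78%). In these fits the lone root array was assumed to vary like the other tissues, and both use the same leaf arrays. A call is said to be held where the full fit and both single-array fits made it in the same direction. There were 2104 held higher calls (7.01%) and 1395 held lower calls (4.65%), from 1447 and 916 genes, so that 64.3% of the higher and 52.4% of the lower calls were held. These counts depend on the leaf arrays as well: 911 higher and 545 lower calls were held without leaf repeat 1, and 975 and 617 without leaf repeat 2. With the Gapdh ratio as a covariate limma gave 0 held calls, with 732 at an unadjusted p under 0.05 in all fits. The held higher calls had a median difference of 2.65 and the others 1.64, and the held lower calls a median of -2.56 and the others -1.66. Of the lower calls not held, 798 were lost only in the fit with root repeat 2, 268 only in the fit with root repeat 1 and 200 in both. Of the higher calls not held, 561, 452 and 157 were lost in the same way.

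Germin-like proteins, which are cupin-fold glycoproteins of the cell wall space, gave the largest differences in favour of leaf among named genes. GER5 had signals of 14455 and 15152 in the leaf arrays and 19.9 and 188 in the root arrays. Both leaf values stood far above both root values, with a log2 difference of 7.43 ± 0.62 (SE; adjusted p = 7.32e-05). GER8 gave 4605 and 4423 in leaf and 13.2 and 54.4 in root (6.64 ± 0.59, adjusted p = 9.56e-05). This was the largest of its 3 tested probe sets, of which 2 were called. The same family also held genes of the opposite pattern. GER2 read 147 and 195 in leaf and 11117 and 4602 in root, and it was lower in leaf by a wide margin on both root arrays (-5.27 ± 0.49, adjusted p = 0.000131). Of 9 germin-like genes tested, 2 were higher in leaf, both held, and 6 were lower, of which 3 were held. GER4 was held at -3.57, whereas GER1, with 30.6 and 67.4 in leaf and 3446 and 665 in root, was called (-4.62) but lost the call against root repeat 2 alone and without leaf repeat 1.

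Other genes among the 15 largest leaf differences belonged to signalling, sugar export, water channels and defence. PCF7, a TCP-type transcription factor, gave 3536 and 3755 in leaf against 54.9 and 51.9 in root. The root repeats were close together here, and the difference was 5.72 ± 0.36 (SE; adjusted p = 2.61e-05). The plasma membrane aquaporin gene OsPIP2;7 gave 9009.8 and 7471 in leaf and 37.3 and 321 in root. Its difference of 5.94 ± 1.05 (adjusted p = 0.00313) was held, and both root arrays were far below both leaf arrays. OsSWEET1b, a gene of the SWEET sugar transporters, was at 712 and 577 in leaf and at 3.29 and 3.89 in root. Its difference of 5.07 ± 0.48 shrank to 3.38 when 64 was added to each signal in place of 16. ER2, a receptor kinase of the ERECTA family, was at 1778 and 2044 in leaf and at 45.0 and 44.8 in root, 4.98 ± 0.27 apart (adjusted p = 1.54e-05). The protein phosphatase gene OsPP2C73 (4.99, with 2 of its 3 probe sets called), the beta-glucosidase gene BGLU33 (4.89), the chitinase gene Cht5 (4.81), the auxin repressor gene IAA14 (4.70) and Pi21 (4.79), whose loss gives partial resistance to blast fungus, were also held. GLT2 (5.76) and BCL1 (4.95) complete the 15 together with GLK2 and GDCSH, which are described with the chloroplast genes.

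**Figure D1:**
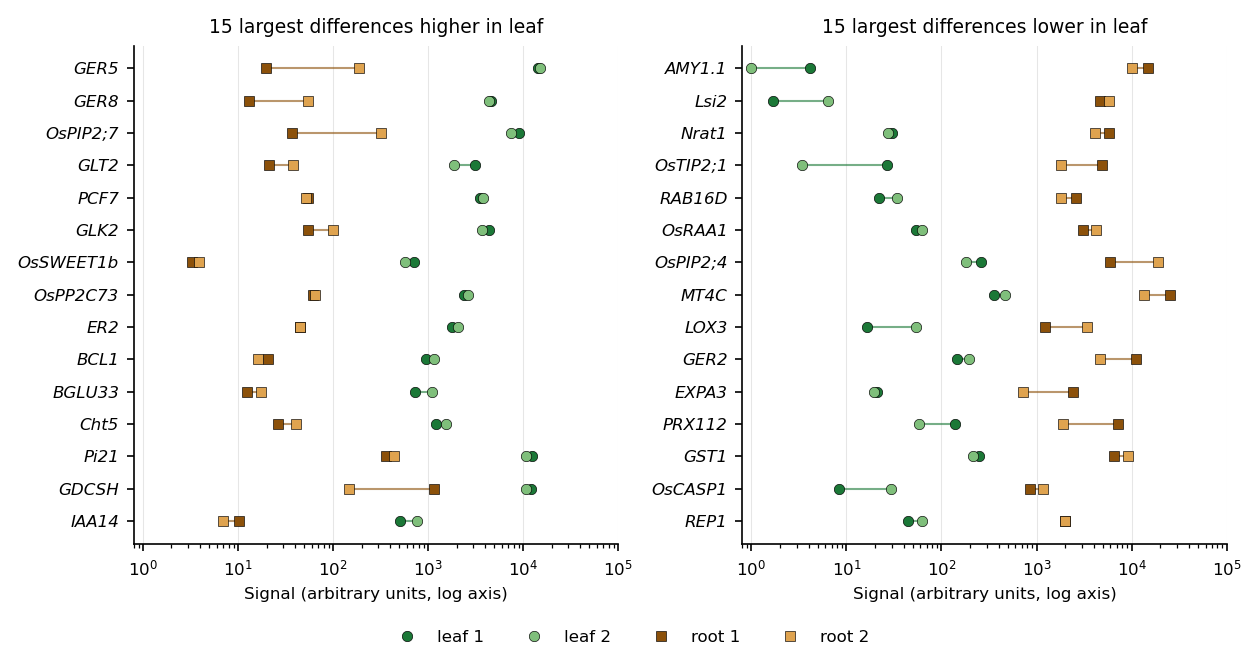
Signal of the 30 genes with the largest held differences on a log axis, 15 higher in leaf and 15 lower; each point is 1 array (leaf 1, leaf 2, root 1, root 2), and signals below 1 are drawn at 1. Lack of overlap was a condition of the choice, so the leaf and root points of each gene form 2 separate pairs. GER5 has 14455 and 15152 in leaf against 19.9 and 188 in root.

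The chloroplast genes as a class were higher in leaf, but their level in root depended on the root array. Of 13 genes for the photosystems, light harvesting and photosynthetic electron transport, 7 were higher in leaf, 4 of them held, and none was lower. Their median difference was 2.97, against 1.55 for root repeat 1 alone and 4.22 for root repeat 2 alone, where the median of all tested probe sets was 0.01 and -0.12. The 13 genes were all higher in root repeat 1 than in root repeat 2, and 11 of them by at least 2-fold, where 13.8% of all tested probe sets were. With the Gapdh ratio as a covariate the median of the list was 4.31.

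LFNR1, the leaf ferredoxin-NADP reductase that passes electrons to NADP, gave 11908 and 9942 in leaf and 712 and 249.5 in root. Leaf exceeded both root arrays, with a difference of 4.63 ± 0.52 (adjusted p = 0.000308). Ferredoxin, the carrier upstream of that enzyme, was at 15943 and 14635 in leaf and at 2789 and 712 in root. The difference of 3.42 ± 0.90 (adjusted p = 0.0224) was not held, since it lost the call against root repeat 1 alone, at an adjusted p of 0.124, and without either leaf array. CAB2R, a chlorophyll a/b binding protein of the antenna, was bright in every array, with 21118 and 18283 in leaf and 15512 and 3976 in root. It did not pass the test (1.32 ± 0.83, adjusted p = 0.299), and its difference was 0.34 against root repeat 1 and 2.30 against root repeat 2. PSAH, a subunit of photosystem I, had 14483 and 11209 in leaf and 4354 and 306 in root and missed the threshold narrowly at an adjusted p of 0.0504. RCABP69, another antenna protein, was called at 3.14 but lost the call against root repeat 1 alone and without either leaf array.

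Carbon fixation and photorespiration followed, with 8 of 11 genes higher in leaf, 6 of them held, and a median difference of 2.46. Rubisco activase, OsrcaA1, which keeps the carbon-fixing enzyme active, had signals of 22189 and 19312 in leaf and 1275 and 1487 in root. The 2 root arrays were alike, so the difference of 3.89 ± 0.41 (adjusted p = 0.000228) was nearly the same against each. GDCSH encodes the H protein of glycine decarboxylase, the mitochondrial step of photorespiration. It gave 11994 and 10767 in leaf and 1155 and 147 in root, and was held at 4.70 ± 0.76 (adjusted p = 0.00194). GLN2, the plastid glutamine synthetase that recovers the ammonia released there, gave 15476 and 13806 in leaf and 1344 and 564 in root (4.04 ± 0.62). The Rubisco small subunit gene OsrbcS, at 23578 and 23829 in leaf and 7774 and 1501 in root, was called at 2.79 ± 0.86 but was not held: the call was lost against root repeat 1 alone and without either leaf array. GLO3, a glycolate oxidase gene, had 2365 and 2103 in leaf and 3884 in both root arrays, and did not pass the test (-0.80 ± 0.41).

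Chlorophyll synthesis had the highest share of leaf calls among the 38 lists. Of 19 genes for chlorophyll and tetrapyrrole synthesis, including the GLK activators, 16 (84.2%) were higher in leaf, 11 of them held, and none was lower, at a median of 1.98. GLK2, a factor that activates chlorophyll and antenna genes, had signals of 4398 and 3728 in leaf and 54.8 and 99.0 in root. Leaf was far above root on every array (5.49 ± 0.38, adjusted p = 3.48e-05), and all 4 of its tested probe sets were called higher in leaf, from 3.19 to 5.49. GLK1, its paralogue, had 563 and 841 in leaf and 70.9 and 85.4 in root and was held at 2.91. Of the 3 subunit genes of the magnesium chelatase, the enzyme that commits protoporphyrin to chlorophyll, CHLH and CHLD (3.15) were higher and CHLI did not pass the test (1.25 ± 0.41, adjusted p = 0.0565). CHLH, its large subunit, was at 1975 and 1145 in leaf and 241 and 41.6 in root, a held difference of 3.64 ± 0.78 that lost its call without leaf repeat 1. PPOX1, the protoporphyrinogen oxidase one step before it, was at 3057 and 3587 in leaf and 286 and 325 in root, 3.37 ± 0.38 apart (adjusted p = 0.000306).

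Chlorophyll breakdown had 4 of 5 genes higher in leaf, 2 of them held (median 1.74). NOL, a chlorophyll b reductase, was at 2043 and 2067 in leaf and 387 and 518 in root, and was held at 2.16 ± 0.38, while its second probe set was not called (0.90). Lls1, the pheophorbide a oxygenase that opens the ring, was at 2835 and 1914 in leaf and 609 and 538 in root, and its higher call in leaf was held against each root array but was lost without leaf repeat 1. Among 17 plastid isoprenoid, carotenoid and tocopherol genes 6 were higher in leaf and 1 was lower, with a median of 0.78. PSY1, a phytoene synthase that starts the carotenoid pathway, gave 4576 and 3791 in leaf and 704 and 636 in root, a held difference of 2.61 ± 0.41, and 2 of its 3 probe sets were called, over a range from 0.22 to 2.65. VTE2-2 was held at 2.13, while CLA1, a gene of the first step of the plastid isoprenoid pathway, had the same size of difference (2.13 ± 0.62) but lost its call without any one of the 4 arrays. The gene in the other direction was DXPS, a further gene annotated to that first step, at 303 and 339.5 in leaf and 1036 and 1199 in root. It was lower in leaf on both root arrays (-1.75 ± 0.39), though the call was lost without either leaf array.

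Genes for building the chloroplast, such as its sigma factors, proteases, ribosomal proteins and protein import, were higher in leaf at 22 of 30 members, 20 of them held, with a median of 2.19. OsSig2B, a sigma factor of the plastid RNA polymerase, had signals of 562 and 358 in leaf and 18.8 and 7.62 in root. It was the largest of the list at 4.02 ± 0.73 (adjusted p = 0.00359). LTD, which guides antenna proteins inside the chloroplast, was at 10624 and 12112 in leaf and 2104 and 508 in root (3.43 ± 0.62). OsCDSP32, a plastid thioredoxin-like protein, was called at 3.69 and lost the call against root repeat 1 alone and without either leaf array. CLPC1, a chaperone of the plastid Clp protease, was at 11654 and 12143 in leaf and 8898 and 10864 in root. Both leaf values were above both root values, by a difference that did not pass the test (0.27 ± 0.19).

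**Figure D2:**
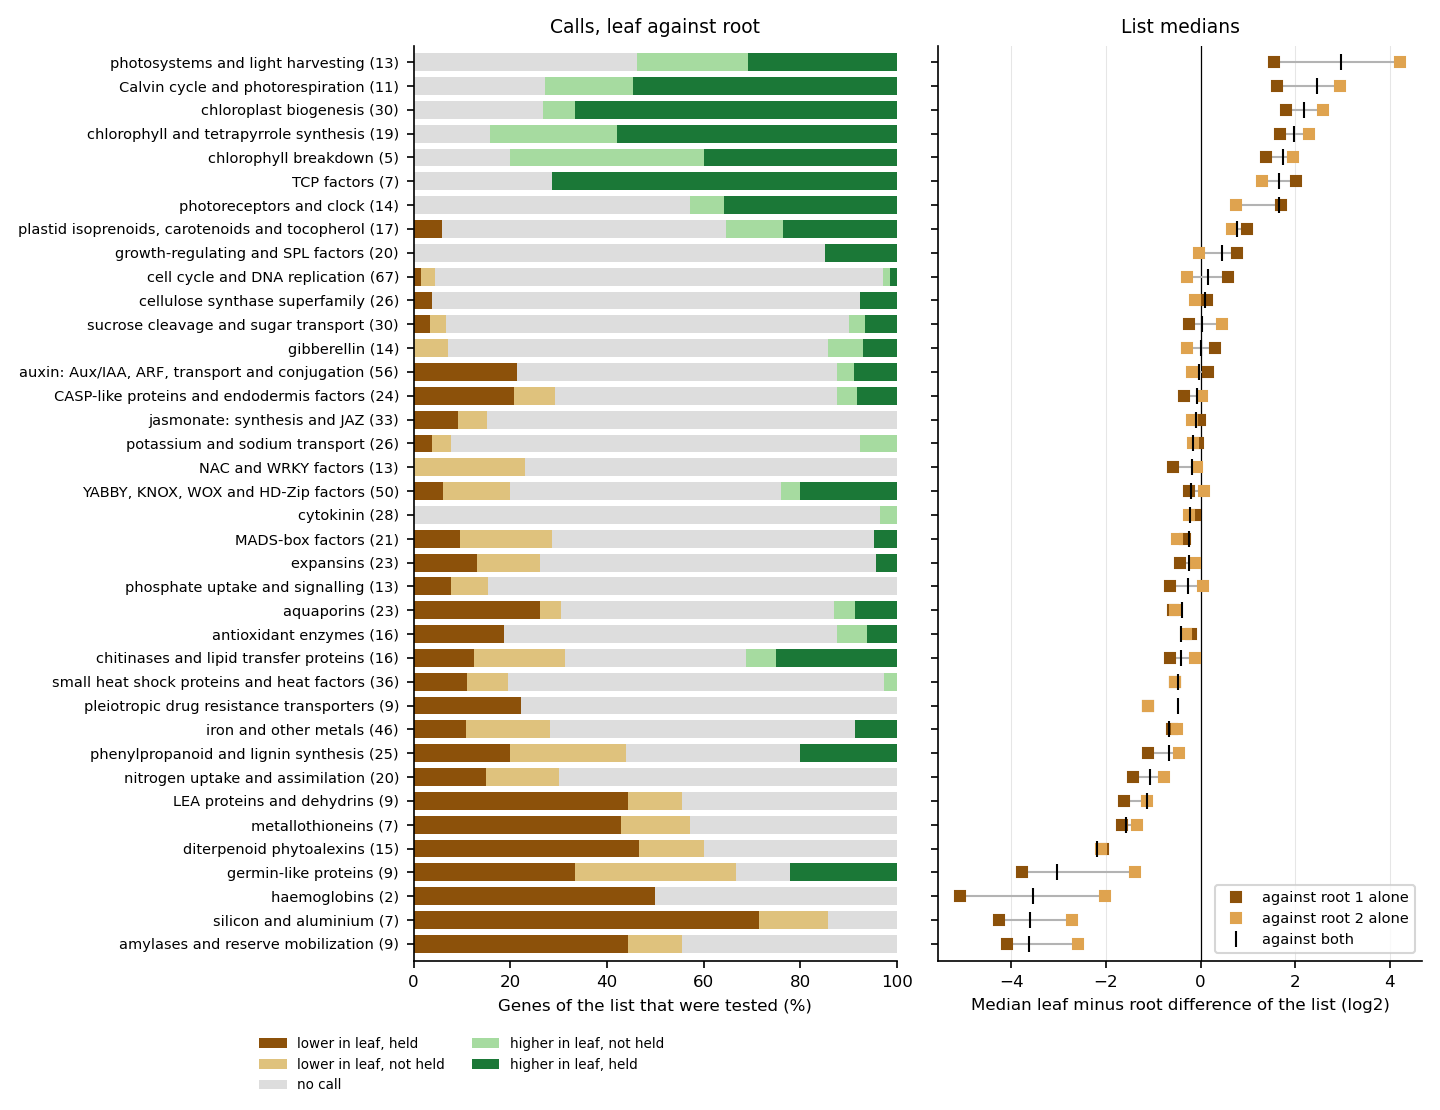
For each of 38 gene lists, the share of tested genes called higher or lower in leaf (held and not held shown apart, in percent) and the list's median log2 difference against root repeat 1 alone, root repeat 2 alone and both. The photosystem list runs from 1.55 against root repeat 1 to 4.22 against root repeat 2, while the chlorophyll synthesis list runs from 1.68 to 2.30.

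Light receptors and clock genes were split by the root arrays too. Of 14 genes 6 were higher in leaf and 5 of these were held, with a median of 1.65. The blue-light receptor genes Osnph1b and Osnph1a, phototropins that steer growth towards light, were held at 3.11 and 2.26. Osnph1b read 7065 and 5611 in leaf and 898 and 569.9 in root, a clean separation. The evening pseudo-response regulator OsPRR1 had 3649 and 2318 in leaf and 897 and 400.1 in root and was held at 2.25, with the call lost without leaf repeat 1, and OsPRR95 was held at 2.36. GI, a large clock protein that links the clock to flowering, was at 13223 and 12885 in leaf and 6929.9 and 7295 in root, which is a difference under 2-fold (0.87 ± 0.27, adjusted p = 0.0415). COC1, a morning gene of the LHY and CCA1 type, and OsPCL1, an evening gene of the LUX type, moved in opposite ways on the root arrays. COC1 was at 5085 and 4021 in leaf, 409.8 in root repeat 1 and 4838 in root repeat 2, whereas OsPCL1 was at 4119 and 3739 in leaf, 4705 in root repeat 1 and 319.6 in root repeat 2. Neither passed the test (1.66 ± 0.84 and 1.65 ± 0.89).

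Of 7 genes for TCP factors, which control cell proliferation in growing leaves, 5 were higher in leaf, all 5 held, including PCF5 (2.68) and PCF3 (2.43) beside PCF7, while PCF2 did not pass the test at 0.39. Of 20 growth-regulating and SPL factors 3 were higher, all held, where 10.9% of all tested probe sets were higher, and none was lower: OsGRF4 had 468 and 444 in leaf and 45.8 and 17.4 in root (3.38 ± 0.38), OsGRF3 was at 2.57, and SPL8 was at 3.19, or 4.90 and 1.89 when 1 or 64 was added to each signal. SPL15, which was not called, was at 4891 and 4848 in leaf and 9979 and 6048 in root (-0.67 ± 0.24).

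**Figure D3:**
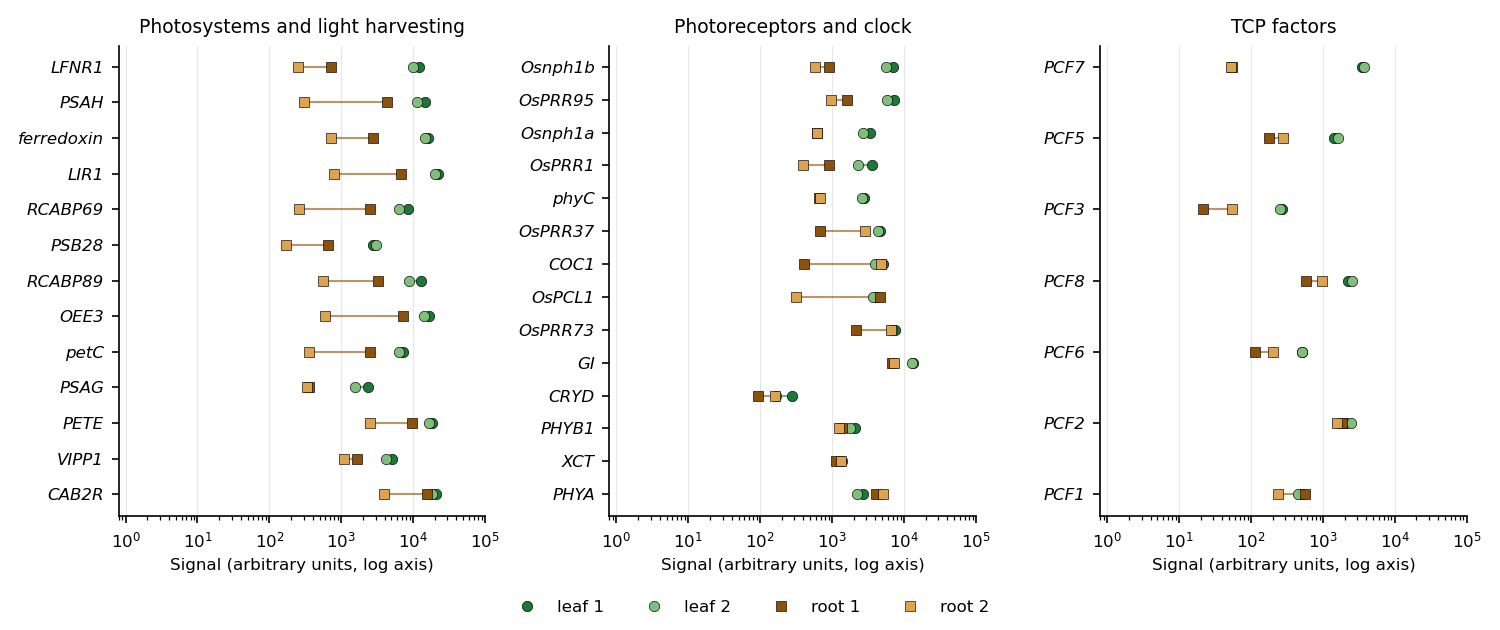
Signals of the tested photosystem and light harvesting genes, photoreceptor and clock genes, and TCP factors on a log axis, 1 point per array (leaf 1, leaf 2, root 1, root 2). PCF7 shows close root points at 54.9 and 51.9 below leaf points at 3536 and 3755, whereas PSAH shows root points at 4354 and 306.

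Homeobox and YABBY genes divided between the organs, with 12 of 50 higher in leaf (10 held) and 10 lower (3 held). These are 24.0% and 20.0%, against 10.9% and 8.87% of all tested probe sets. The higher ones were mainly YABBY genes, which mark the flat faces of lateral organs, and ROC genes of the epidermal HD-Zip class. ROC1 was at 3069.9 and 3242 in leaf and 278 and 144 in root, a held difference of 3.87 ± 0.34 (adjusted p = 9.22e-05). YAB1 was at 2006 and 2337 in leaf and 256 and 82.7 in root (3.74 ± 0.72), and YAB5 was held at 3.52. The lower ones were led by class I KNOX genes, which keep meristem cells from differentiating. OSH71 had signals of 179.6 and 191 in leaf and 2644 and 2319 in root, and was lower in leaf on both arrays by -3.63 ± 0.37 (adjusted p = 0.000189). OSH6 (-3.25) lost its call against root repeat 2 alone and without leaf repeat 2, and hox14 (-2.98) against root repeat 1 alone and without either leaf array. Of the WOX genes, WOX6 was lower and held (-2.65), with its call lost without leaf repeat 2. The second WOX6 probe set, with low signals in both organs, was not called (-0.51 ± 0.66). WOX5, which marks the root quiescent centre, had 41.2 and 60.2 in leaf and 159 and 256 in root. WOX5 was called at -1.72 ± 0.41 but lost the call against root repeat 1 alone and without either leaf array. WOX5 and WOX6 were named after their values were seen. Hox16 did not differ beyond its error (0.21 ± 0.29).

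Among named genes the largest difference in favour of root belonged to a starch-degrading enzyme. AMY1.1, an alpha-amylase best known from germinating grain, was at 4.17 and 0.335 in leaf and at 15001 and 9999.7 in root. Its difference was -9.40 ± 0.53 (adjusted p = 1.56e-05), and -12.19 or -7.54 with 1 or 64 added to each signal, since the leaf signals were near 0. Of 9 genes for amylases and reserve mobilization 5 were lower in leaf, 4 of them held, none was higher, and the median was -3.62, or -2.16 with 64 added to each signal. REP1, a cysteine protease of the germinating grain, was at 44.8 and 62.2 in leaf and 1983 and 1991 in root, with the same difference of -4.86 against each root array. Adh2, an alcohol dehydrogenase used in fermentation, was at 455 and 537 in leaf and 14289.7 and 12222 in root (-4.70 ± 0.63, adjusted p = 0.000787). PDC2, a pyruvate decarboxylase of the same pathway, was not called on either of its probe sets. One gave -0.79 ± 0.21, and the other, at 155 and 209 in leaf and 3013 and 262 in root, gave -2.22 ± 0.83 (adjusted p = 0.0844), with a call against root repeat 1 alone (-3.95).

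Markers of grain tissue were examined beside these genes. Of 15 tested seed markers, AMY1.1 and RAG2 were lower in leaf and Wx was higher, while 13 were under 100 on both leaf arrays and 10 under 100 on both root arrays. The summed signal of the seed markers was 20370.2 and 15358 in the root arrays, against 3783 and 3828 in leaf and 483106 and 372822 in endosperm. AMY1.1 made up the larger share of the root sums, but was at 3.91 and 1.53 in embryo and 1.91 and 1.61 in endosperm. GLB made up most of the leaf sums, at 3359 and 3422. It was at 4401 and 4713 in root, 3529.6 and 3844 in embryo and 2319.5 and 2938 in endosperm. Glutelin genes varied. GLUA-1 and GluC were below 10 on both root arrays, whereas GLUB-5 was at 37.8 and 103 in root against 24.9 and 24.2 in leaf. GLUA-2 was at 36.6 and 78.6 in root against 86.3 and 76.4 in leaf. RAG2 was at 241 and 177 in root against 26.5 and 44.9 in leaf. Whether remains of the grain contributed to the root signals was not tested.

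LEA proteins and dehydrins, which protect cells against water loss, pointed the same way, with 5 of 9 lower in leaf, 4 held, and none higher. RAB16D was at 22.1 and 34.2 in leaf and 2594 and 1827 in root (-5.65 ± 0.55, adjusted p = 0.000151). LEA19 was at 230.1 and 77.7 in leaf and 3239 and 1768 in root and was held at -3.99, as was RAB16C at -3.15. RAB21 was at 1926 and 1190.0 in leaf and 4102 and 2323 in root and did not pass the test (-1.02 ± 0.42), while its second probe set was called lower in leaf (-1.09 ± 0.33, adjusted p = 0.0409) but not held.

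The silicon and aluminium genes were nearly all on the root side. Of 7 genes 6 were lower in leaf, 5 of them held, with a median of -3.61. Lsi1 is the channel through which silicic acid enters the root, and Lsi2 is the exporter that passes it on towards the stele. Lsi2 read 1.69 and 6.43 in leaf and 4613 and 5726 in root. The root arrays were close and the leaf arrays near 0, with a difference of -8.02 ± 0.56 (adjusted p = 3.48e-05). Lsi1 read 989 and 815 in leaf and 17616 and 17769 in root, nearly equal on both root arrays, at -4.28 ± 0.54 (adjusted p = 0.000549). Lsi6, the homologue that unloads silicon in the shoot, was at 5137 and 5392 in leaf and 4149 and 2449.8 in root and did not pass the test (0.72 ± 0.37). Nrat1, an aluminium importer of the root tip, was at 30.4 and 27.3 in leaf and 5751 and 4076 in root (-6.76 ± 0.53, adjusted p = 5.44e-05). STAR1 and STAR2, which form a transporter needed for aluminium tolerance, were held at -2.46 and -3.61, and their activator ART1 was called at -2.42 but lost the call against root repeat 2 alone and without either leaf array. These 3 genes were named after their values were seen, because the list is short.

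Aquaporins went both ways, with 7 of 23 lower in leaf (6 held) and 3 higher (2 held). These are 30.4% and 13.0%, against 8.87% and 10.9% of all tested probe sets. OsTIP2;1, a channel of the vacuole membrane, was at 133 and 136 in leaf and 12397 and 16543 in root (-6.57 ± 0.46, adjusted p = 3.48e-05), and its second probe set gave -6.70. OsPIP2;4 was at 262 and 179 in leaf and 5957 and 19189.9 in root. Its root arrays were more than 2-fold apart, yet both were far above leaf (-5.52 ± 0.59). OsPIP1;3 was held at -4.33. On the leaf side, beside OsPIP2;7, OsNIP1;1 was at 11087 and 10896 in leaf and 399.6 and 925 in root (4.14 ± 0.36, adjusted p = 9.56e-05). OsTIP4;1 was called at 1.15 but lost the call against root repeat 1 alone and without either leaf array. OsTIP1;1, bright throughout, was at 20342 and 19051 in leaf and 18172 and 28402 in root and did not pass the test (-0.21 ± 0.23).

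Of 20 genes in the nitrogen list 6 were lower in leaf (30.0%, where 8.87% of all tested probe sets were) and none was higher. Only 3 of the calls were held. GLN2 (4.04) and Fd-GOGAT (1.45, not held) were counted with photorespiration instead, and both were called higher in leaf. The nitrate transporter genes differed sharply between the root repeats. NRT2.2 was at 23.3 and 4.98 in leaf and at 1609 and 120.0 in root, and NRT2.3 was at 102 and 79.5 in leaf and 2174 and 295 in root. Both were called (-4.03 ± 0.96 and -2.96 ± 0.86) and both lost the call against root repeat 2 alone and without leaf repeat 2, NRT2.3 also without leaf repeat 1. GLN1-3, a cytosolic glutamine synthetase, was held at -2.81, or -1.78 with 64 added to each signal. The ammonium transporter OsAMT1;2 was at 36.9 and 33.0 in leaf, 3470.3 in root repeat 1 and 104 in root repeat 2. It narrowly missed the test (-3.67 ± 1.20, adjusted p = 0.0548), and its difference was -6.10 against root repeat 1 and -1.23 against root repeat 2. GLN1-1, which was not called, was at 6452 and 5755 in leaf and 14549 and 10884 in root (-1.04 ± 0.44).

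Of 13 phosphate genes 2 were lower in leaf (15.4%, where 8.87% of all tested probe sets were) and none was higher. OsPHO1;2, which loads phosphate into the xylem, was at 1219 and 839 in leaf and 7619 and 12305 in root and was held at -3.24 ± 0.48 (adjusted p = 0.00123) on 1 of its 3 probe sets, the others being uncalled and as small as -0.14. The regulator gene OsPHR3 (-1.33) lost its call against root repeat 1 alone and without either leaf array. OsPht1;1 did not pass the test on either of its probe sets. One gave 0.13 ± 0.28, and the other, at 201 and 354 in leaf and 38.2 and 117 in root, gave 1.74 ± 0.65 (adjusted p = 0.0847) and was called higher against root repeat 1 alone (2.39). Of 26 potassium and sodium genes 2 were higher and 2 lower (7.69% each way, against 10.9% and 8.87% of all tested probe sets), and 1 was held. That 1 was HKT1;5, which takes sodium back out of the xylem, at 36.0 and 32.8 in leaf and 202 and 369 in root (-2.52 ± 0.45). HAK17 (2.20), HAK27 (1.51) and HAK9 (-1.24) lost their calls without root repeat 1 and without either leaf array, HAK27 and HAK9 also without root repeat 2, and HAK5 did not pass the test on the probe set that stands for it (-0.21 ± 0.18). The second HAK5 probe set was called lower in leaf (-1.50 ± 0.45, adjusted p = 0.0379), as it was against root repeat 1 alone (-1.76) but not against root repeat 2 alone.

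Iron and other metal genes were lower in leaf at 13 of 46 members (5 held) and higher at 4 (all held). These are 28.3% and 8.70%, against 8.87% and 10.9% of all tested probe sets. IRT1, the iron importer of the root surface, was at 215 and 225 in leaf and 1557 and 1218 in root (-2.56 ± 0.41, adjusted p = 0.00195). COPT1, a copper importer, was at 231 and 320.5 in leaf and 7090.5 and 756 in root. It was held at -3.02 ± 0.78 although the root arrays were far apart, and lost its call without either leaf array. A ZIP1 gene, of the zinc and iron transporter family, had 60.6 and 45.2 in leaf and 2349 and 148 in root. It was called at -3.19 and lost the call against root repeat 2 alone and without either leaf array. Nramp1, a metal transporter, went the other way, with 11878 and 8128 in leaf and 2270.4 and 2204 in root (2.13 ± 0.39, lost without leaf repeat 1), and NRAMP4 was held at 1.89 but lost its call without either leaf array. The other tested probe sets of NRAMP4 were not called, so that 1 of 5 was, over a range from 1.02 to 1.89. The genes for the iron chelator nicotianamine and its products were bright in both organs. NAS1 gave 10396 and 9121 in leaf and 19356 and 19187 in root, NAS2 gave 10577 and 8401 in leaf and 19209.5 and 29620.1 in root, and NAAT1 gave 5426 and 5388 in leaf and 10782 and 6239 in root. None of the 3 passed the test (-0.98, -1.34 and -0.60). Among 7 metallothioneins, small metal-binding proteins, 4 were lower in leaf and 3 of these were held. MT4C read 353 and 469 in leaf and 25339 and 13464 in root (-5.45 ± 0.60, adjusted p = 0.000292), and MT4A was held at -2.26, whereas MT1B (-1.72) lost the call against root repeat 2 alone and without leaf repeat 1. MT2C was at 34688 and 33220.0 in leaf and 28093 and 56130.4 in root, without passing the test (-0.23 ± 0.31).

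The Casparian strip gene OsCASP1, whose protein sets out the strip in the endodermis, was at 8.33 and 29.2 in leaf and 851 and 1176 in root. The organs were cleanly apart (-4.94 ± 0.50, adjusted p = 0.000190). Of 24 genes for CASP-like proteins and endodermal factors 7 were lower in leaf (5 held) and 3 were higher (2 held). These are 29.2% and 12.5%, against 8.87% and 10.9% of all tested probe sets. The family name did not go with one organ. OsCASPL1D1 had 98.4 and 141 in leaf and 8163 and 970.1 in root (-4.41 ± 0.81) and OsCASPL1U3 was held at -4.16. OsCASPL2A1 was the reverse, at 5619 and 5459 in leaf and 592 and 481 in root (3.34 ± 0.21, adjusted p = 2.61e-05), and OsCASPL2C1 was held at 2.86. OsCASPL2C2 (1.99) lost its call against root repeat 1 alone and without either leaf array.

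Diterpenoid phytoalexin genes, which in rice sit in clusters and make momilactones and related compounds against fungi and neighbouring plants, were lower in leaf at 9 of 15 members, 7 of them held, and higher at none, with a median of -2.19. CPS4, a diterpene cyclase that opens the momilactone branch, was at 72.6 and 139.9 in leaf and 1392 and 2084 in root (-3.87 ± 0.59, adjusted p = 0.00141). CYP99A3, an oxidase of the same cluster, was at 122 and 255 in leaf and 3327 and 2227 in root (-3.82 ± 0.46). CPS2, the cyclase of the phytocassane branch, was held at -2.93 but lost its call without leaf repeat 1. KSL7, a synthase acting after CPS2 and named after its values were seen, was called at -2.19 but lost the call against root repeat 1 alone and without leaf repeat 1. Of 9 pleiotropic drug resistance transporters 2 were lower in leaf (22.2%, where 8.87% of all tested probe sets were), both held. OsABCG37 was at 658 and 679 in leaf and 4417 and 4360.1 in root (-2.69 ± 0.27). OsABCG48 was at -3.11, with its call lost without leaf repeat 1. OsABCG42 did not pass the test (0.54 ± 0.52).

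Of 25 phenylpropanoid and lignin genes 11 were lower in leaf (5 held) and 5 were higher (all held). PAL06, a phenylalanine ammonia lyase at the entry of the pathway, was at 357 and 469.7 in leaf and 2899 and 4231 in root (-3.05 ± 0.45, adjusted p = 0.00127). The laccase genes LAC19 and LAC24, whose enzymes couple lignin units, were called at -3.03 and -3.02 but lost the call against root repeat 2 alone and without leaf repeat 1. CHS1, the chalcone synthase that opens the flavonoid branch, was higher in leaf, at 10589.7 and 9529.7 against 1130.4 and 774 in root (3.40 ± 0.28, adjusted p = 6.52e-05), with 2 of its 3 probe sets called over a range from 0.21 to 3.71. The alcohol dehydrogenase family genes OsCAD3 (4.23) and OsCAD8C (3.81) were held on the leaf side as well. None of 5 tested probe sets of the PAL gene was called, and the one that stands for it read 17084 and 16013 in leaf and 18602 and 22401 in root (-0.30 ± 0.21). Of the 2 haemoglobins, which bind oxygen and nitric oxide in plant cells, NSHB1 was at 99.7 and 94.7 in leaf and 6676 and 1044 in root. It was held at -4.56 ± 0.70 (adjusted p = 0.00158). NSHB2, at 134 and 89.9 in leaf, had 2425 in root repeat 1 and 206 in root repeat 2 and did not pass the test (adjusted p = 0.0553).

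**Figure D4:**
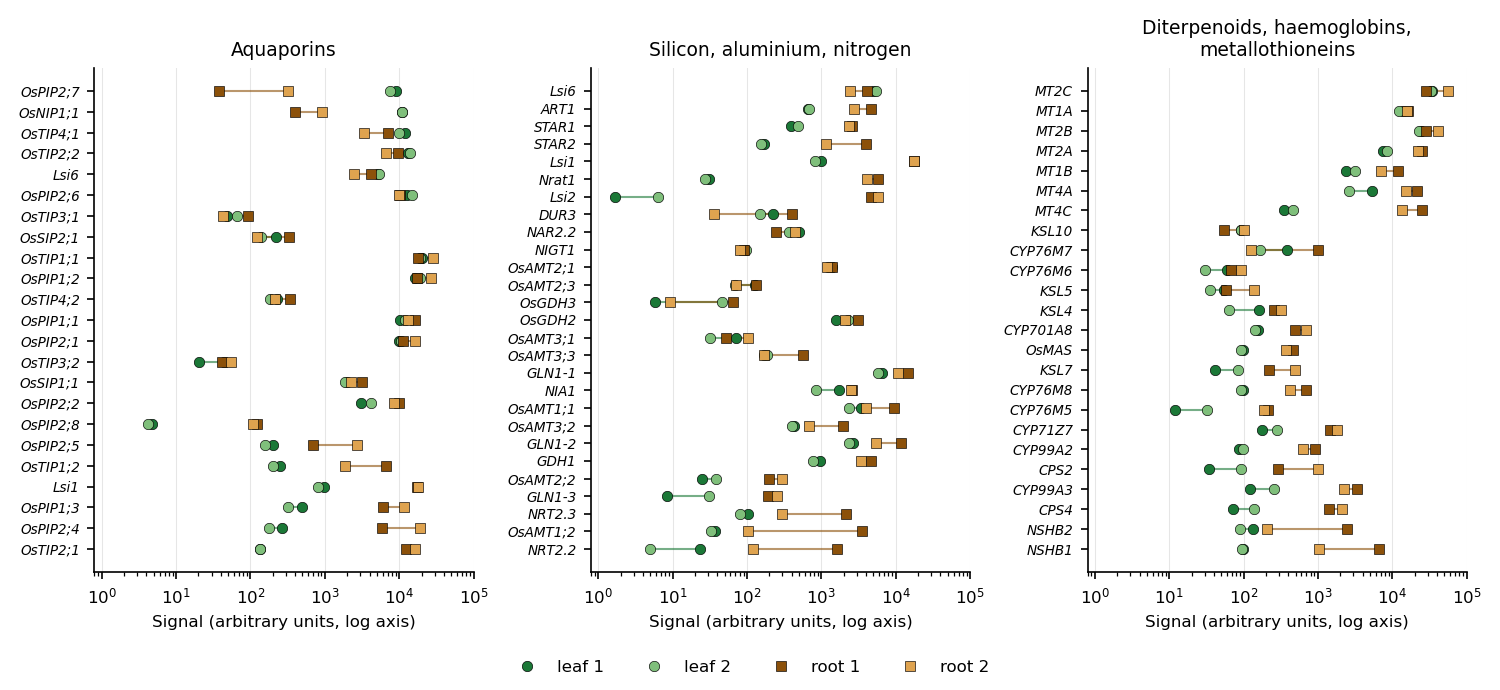
Signals of the tested aquaporin genes, silicon, aluminium and nitrogen genes, and diterpenoid, haemoglobin and metallothionein genes on a log axis, 1 point per array. Lsi1 has 2 nearly equal root points at 17616 and 17769, whereas NRT2.2 has root points at 1609 and 120.0.

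Of 30 genes for sucrose cleavage and sugar transport 3 were higher in leaf (10.0%) and 2 lower (6.67%), close to the 10.9% and 8.87% of all tested probe sets. OsSWEET11, a sucrose exporter, was at 2134 and 2359 in leaf and 93.4 and 96.8 in root, with almost no spread within either organ (4.35 ± 0.25, adjusted p = 1.61e-05). OsSWEET14 of the same family was at 373 and 389.6 in leaf and 1973 and 1685 in root (-2.21 ± 0.47), held against each root array but lost without either leaf array. The sucrose loader OsSUT1 (1.70) and the monosaccharide transporter OsMST3 (-1.20) lost their calls against root repeat 2 alone and without either leaf array. OsSWEET4 stayed below 2-fold (-0.89 ± 0.27).

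Wall-loosening expansins were lower in leaf at 6 of 23 members (3 held) and higher at 1, which was held. These are 26.1% and 4.35%, against 8.87% and 10.9% of all tested probe sets. EXPA3 was at 21.0 and 19.4 in leaf and 2417 and 721 in root (-5.21 ± 0.62, adjusted p = 0.000408), and EXPB2 was at 146 and 179.6 in leaf and 8921 and 1348 in root (-4.29 ± 0.74). Both were held although root repeat 1 was more than 2-fold above root repeat 2, as was EXPB6 at -3.17. EXPA6 was the leaf member, at 1854 and 1785 in leaf and 294 and 193 in root (2.85 ± 0.39). Of 26 genes of the cellulose synthase superfamily 2 were higher (7.69%) and 1 was lower (3.85%), under the 10.9% and 8.87% of all tested probe sets. The higher ones were OsCslA9 at 2.43 and OsCslF8 at 2.03, the latter lost without leaf repeat 2. The lower one, OsCslC3, which belongs to a subfamily that makes the xyloglucan backbone, was at 11.4 and 54.8 in leaf and 694 and 1689 in root (-4.64 ± 0.56, adjusted p = 0.000455).

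Chitinases cut fungal walls, and lipid transfer proteins carry lipids towards the cuticle. Among 16 such genes 5 were called higher and 5 lower in leaf, with 4 and 2 held. These are 31.2% each way, against 10.9% and 8.87% of all tested probe sets. Cht4 was at 1249 and 1553 in leaf and 22.4 and 87.6 in root (4.48 ± 0.51), and LTP was at 7638 and 6126 in leaf and 1224 and 609.8 in root (2.96 ± 0.32). On the root side Cht10 was held at -1.92 (lost without leaf repeat 2). Rcb4 (-2.09) and Cht2 (-2.07) lost their calls against root repeat 2 alone and without leaf repeat 2, Cht2 also without leaf repeat 1. The second Cht2 probe set was not called (-2.03 ± 0.68, adjusted p = 0.0568). LTPL1 did not pass the test (1.05 ± 0.35, adjusted p = 0.0568).

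Among 16 antioxidant enzyme genes 2 were higher (12.5%) and 3 were lower in leaf (18.8%), against 10.9% and 8.87% of all tested probe sets. APX8, an ascorbate peroxidase of the chloroplast, was at 7761 and 6015 in leaf and 562 and 188 in root (4.32 ± 0.91), with its call lost without leaf repeat 1. APX1, a cytosolic form, was at 2919 and 2431 in leaf and 12683 and 10480.3 in root (-2.11 ± 0.23, adjusted p = 0.000278). APX7 (-1.68) and cuznsod1 (-1.08) were held on the same side. APX2 was not called on any of its 3 tested probe sets, which ran from -0.55 to -0.28. sodCp, a plastid superoxide dismutase, was called at 1.13 but lost the call without either leaf array and against root repeat 1 alone. The class III peroxidase gene PRX112 (-5.12 on 1 probe set, -0.30 and uncalled on the other) and the glutathione S-transferase gene GST1 (-4.96), which belong to neither list, were among the 15 largest root differences, as was OsRAA1, a gene associated with rice root architecture, at 54.2 and 62.0 in leaf and 3087 and 4188 in root (-5.61 ± 0.57).

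Auxin genes had the most held calls of the hormone lists, with 12 of 56 lower in leaf, all 12 held, and 7 higher, 5 held. These are 21.4% and 12.5%, against 8.87% and 10.9% of all tested probe sets. OsGH3-2, an enzyme that ties auxin to amino acids, was at 37.0 and 74.3 in leaf and 2742 and 981 in root (-4.58 ± 0.69, adjusted p = 0.00140). OsPIN2, an auxin exporter, was at 32.4 and 37.0 in leaf and 501 and 961 in root (-3.81 ± 0.43). The Aux/IAA repressors appeared on both sides. IAA20 read 61.6 and 36.0 in leaf and 839 and 1212 in root (-4.01 ± 0.51), whereas IAA14 read 505 and 762 in leaf and 10.2 and 6.91 in root (4.70 ± 0.36). IAA8 (2.33) lost its call without any one of the 4 arrays, and the auxin response factor ARF12 (1.71) lost it against root repeat 2 alone and without either leaf array. IAA17, bright in both organs, did not pass the test (0.32 ± 0.29).

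Jasmonate genes were lower in leaf at 5 of 33 members (15.2%, where 8.87% of all tested probe sets were; 3 held) and higher at none. LOX1.1, a lipoxygenase, was at 56.5 and 67.1 in leaf and 2033 and 1959 in root, with the root arrays in close accord (-4.70 ± 0.37, adjusted p = 5.56e-05). LOX3 was at 16.4 and 53.3 in leaf and 1239 and 3359 in root (-5.44 ± 0.69), and OPR1 was held at -3.10 but lost its call without leaf repeat 2. JAZ1, a repressor of the pathway, was bright on all 4 arrays and did not pass the test (-0.33 ± 0.23). Of 14 gibberellin genes 2 were higher (14.3%) and 1 lower (7.14%), near the 10.9% and 8.87% of all tested probe sets. OsKS1, the kaurene synthase of gibberellin synthesis, was at 1329.9 and 1172 in leaf and 154 and 287 in root and was the held one (2.48 ± 0.37). CYP714C2 (2.27) lost its call against root repeat 1 alone and without either leaf array, and CYP714C1 (-3.10) against root repeat 2 alone and without leaf repeat 2. Cytokinin genes gave 1 call among 28, higher in leaf (3.57%), under the 10.9% of all tested probe sets. That call, LOG, an activating enzyme (1.45), was lost against root repeat 1 alone and without either leaf array. OsAHP2 did not pass the test (-0.44 ± 0.19).

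Of 21 MADS-box genes 6 were lower in leaf (28.6%, 2 held) and 1 was higher (4.76%), against 8.87% and 10.9% of all tested probe sets. OsMADS22 was at 4999 and 4743 in leaf and 1005 and 986 in root, with little spread within either organ (2.27 ± 0.21, adjusted p = 0.000136). OsMADS27, which in rice is studied for nitrate responses of the root, was at 72.4 and 61.3 in leaf and 609 and 606 in root (-2.92 ± 0.56). OsMADS16, known as a floral organ gene, was held at -2.61, and OsMADS26 (-2.55) lost its call against root repeat 2 alone and without either leaf array. Of 13 NAC and WRKY genes 3 were lower in leaf (23.1%, where 8.87% of all tested probe sets were), and none was held. WRKY62 was at -2.02, ONAC076 at -1.91 (-1.08 with 64 added to each signal) and ONAC067 at -1.31. All 3 also lost the call without leaf repeat 1, and both NAC genes without leaf repeat 2. WRKY71 did not pass the test (0.82 ± 0.35).

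Small heat shock proteins and heat factors were lower in leaf at 7 of 36 members (4 held) and higher at 1, which was not held. These are 19.4% and 2.78%, against 8.87% and 10.9% of all tested probe sets. OsHsp16.9A was at 80.7 and 121 in leaf and 4185 and 1579.8 in root (-4.49 ± 0.40, adjusted p = 0.000108). OsHsp24.1 was held at -2.09 and OsHsp23.2 at -2.58, or -1.34 with 64 added to each signal, and both lost the call without leaf repeat 2. HSFA3, the leaf-side factor, was called at 1.60 and lost the call against root repeat 2 alone and without either leaf array. HSFA2D did not pass the test on either of its probe sets, which gave -1.16 and 1.47.

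Of 67 cell cycle and replication genes 2 were higher (2.99%) and 3 lower (4.48%), under the 10.9% and 8.87% of all tested probe sets. CYCD2-2, a D-type cyclin, was at 438 and 484 in leaf and 121 and 145 in root (1.68 ± 0.30, held), and RPA14, a subunit of the single-strand DNA binding complex, was at 1737 and 1749 in leaf and 5355 and 4771 in root (-1.53 ± 0.25, held). CDKF-3 (1.28), CDKA-2 (-1.06) and RFC5 (-1.03) were not held, and each lost its call without either leaf array as well. Of the 3 tested probe sets of CDKA-2, 1 was called, and the others gave -1.22 and -1.08. The list median was 0.58 against root repeat 1 and -0.28 against root repeat 2, and 17 of the 67 genes were at least 2-fold lower in root repeat 1 than in root repeat 2, where 11.2% of all tested probe sets were.

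The differences between the root repeats are given here as a description of 2 arrays. Among named genes, those furthest above in root repeat 1 were MFT2, at 1062 against 6.61, OsAMT1;2, the phosphate transporter gene OsPht1;2, at 1289.9 against 36.3, and AldC-1, an aldolase gene, at 8617 against 392. Another AldC-1 probe set went the other way, at 187 in root repeat 1 and 800.2 in root repeat 2. OsPLP2, at 4854 against 257, and the photosynthetic genes ALDP and PSAH followed. In embryo repeat 1, MFT2 and AldC-1 were at 27539 and 16396, but OsAMT1;2 was at 1.41, OsPht1;2 at 13.5, OsPLP2 at 3.14 and PSAH at 51.3. Furthest below in root repeat 1 was HSFA2A, a heat stress factor, at 70.9 against 2614 in root repeat 2 and 79.9 and 94.5 in leaf, followed by COC1. HSFB2A, another heat factor, was at 746 and 796 in leaf, 334 in root repeat 1 and 2023 in root repeat 2, and the zinc finger gene OsC3H60 was at 1495 and 1196 in leaf, 358 in root repeat 1 and 2908 in root repeat 2. These 2 were among 18 probe sets that were called higher in leaf against one root array and lower against the other. OsHsp18.6, at 10608 in embryo repeat 1, was also lower in root repeat 1, at 197 against 1142. So were VIT2, at 588 against 3966, and RLK10, at 42.1 against 296. The heat genes as a list did not go one way. Of its 36 tested genes, 19 were higher in root repeat 1, 9 of them by at least 2-fold, and 6 were at least 2-fold lower. Over all tested probe sets 13.8% were at least 2-fold higher in root repeat 1 and 11.2% at least 2-fold lower.

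Among sets of organ markers the leaf set differed most between the root arrays. The summed signal of 7 leaf markers was 101572 and 92583 in leaf, 28107 in root repeat 1 and 8390.1 in root repeat 2, with 6 of the 7 higher in leaf and 6 of the 7 higher in root repeat 1 than in root repeat 2. The sum of 6 root markers was 11463 and 10032 in leaf and 51657 and 48038 in root. Of the 6, 4 were lower in leaf and 3 were higher in root repeat 1 than in root repeat 2. NAS1, which was not called, made up most of the leaf sums at 10396 and 9121. NAS1 and Lsi1 together made up most of the root sums, while OsAMT1;2 was at 3470.3 in root repeat 1 and 104 in root repeat 2. Lsi2, OsCASP1, Nrat1 and OsAMT1;2 were under 100 on both leaf arrays. The sum of 17 meristem and primordium markers was 13944 and 16813 in leaf and 8642 and 11289.7 in root, with 6 higher in leaf, and that of 10 dividing-cell markers was 29212 and 28018 in leaf and 35575 and 40249.7 in root, with 1 lower. The part of shoot tissue in the level of leaf genes on the root arrays was not tested.

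**Figure D5:**
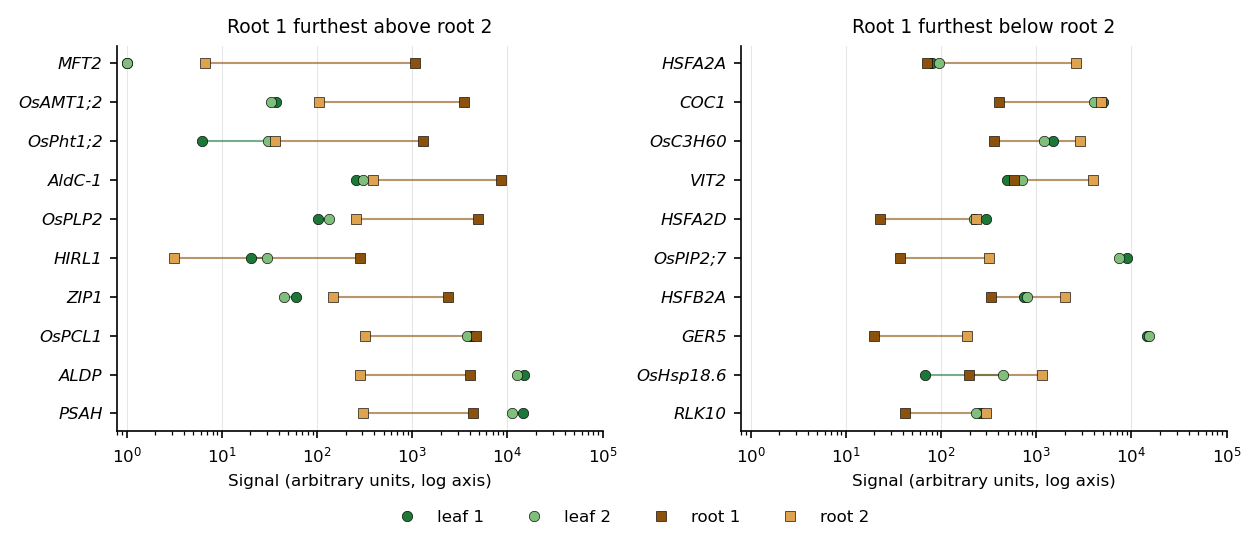
Signals of the named genes that lay furthest apart between the 2 root arrays, on a log axis with 1 point per array and signals below 1 drawn at 1. COC1 and OsPCL1 are crossed: COC1 is at 409.8 in root repeat 1 and 4838 in root repeat 2, OsPCL1 at 4705 and 319.6.

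At the held probe sets the whole seedling, sampled at 10 days, mostly lay between the organs. Of the held higher probe sets 76.3% had a mean seedling signal between the mean leaf and root signals, and of the held lower ones 71.7%. These sets were chosen for a wide gap between the organs, and the share over all tested probe sets was not worked out. The median seedling position was 80.0% of the way from root to leaf for the held higher set and 73.5% for the held lower set. In the other organ, 29.0% of the held higher probe sets were under 100 on both root arrays, and 42.4% of the held lower ones were under 100 on both leaf arrays.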

How the data were processed

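The deposited table holds 1 intensity per probe set and array, a linear MAS5 signal per the submitters' processing notes; scaling target and version are not given in the sources used here. Of 57381 probe sets, 123 controls were left out. Each array was scaled to a trimmed mean of 500 (2% to 98% of the signals), and 16 was added before log2. The 30014 probe sets with a signal of at least 100 on at least 2 of 10 arrays were tested with limma 3.58.1 in R 4.3.3 (1 mean per tissue, trended eBayes, contrast leaf minus root), with Benjamini-Hochberg adjustment over all of them. The fit was also run on simulated data, which is not used as support for any result here. The number of arrays limits the precision.

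Of all probe sets, 22436 had 1 annotated gene, 95 several and 34850 none; 19398 of those tested had 1 gene, and readable names came from the platform annotation and a table of assembly ASM3414082v1. Members and lists were chosen with earlier results of these data known. In lists, the probe set with the highest mean over the 10 arrays stands for a gene. Named genes are first the 15 largest held differences each way (largest probe set per gene) among those whose leaf and root arrays did not overlap. From each list came up to 3 highest and 3 lowest called and 1 uncalled. The 10 largest differences between the root arrays each way and known genes were added, and a few are left out of the text. Planned families with few readable names, or not bearing on leaf or root, were not formed into lists. Same-numbered arrays did not deviate together (r of their deviations from -0.108 to 0.0962 over tissue pairs, 0.0191 for leaf and root), so no pairing was used. Alternatives covered scaling, added constant, filter, trend, samples in the fit, the Gapdh ratio, a replicate block and each leaf and root array left out.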

Additional observations from a re-analysis of the deposited data

How the results depend on the processing

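The 3274 higher, 2661 lower and 3499 held calls stayed within 1.5 times under the other added constants, filters and normalizations, without the trend and with the leaf and root arrays alone, except that scaling to the hybridization spike-ins gave 1736 lower calls. The Gapdh ratio as a covariate gave 2942 higher and 1955 lower calls but 0 held calls in limma, with 732 at an unadjusted p under 0.05; once either root array is removed, the covariate rests on the small differences within the other tissues. Leaving out 1 array at a time gave 1573 to 3964 higher and 1125 to 3287 lower calls, and leaving out a leaf array 1456 to 1592 held calls. The replicate block gave 3220 higher, 2616 lower and 2957 held calls, 2859 of the latter also held without it. Of 161 called probe sets of genes named in the text, 101 kept the call under every alternative in which they were tested, and none changed sign. Of the 161, 155 were tested at a minimum signal of 200 and 160 with scaling to the tested median. The call was lost at 49 without leaf repeat 1, 46 without leaf repeat 2, 28 with the Gapdh covariate and 23 with spike-in scaling. Signs turned for 10 of the genes checked, none of them called. RLK10 and VIT2, also uncalled and not among the 10, turned as well. Against the root arrays singly, RLK10 ran from -0.24 to 2.18 and VIT2 from -2.71 to 0.01. With each root array left out in turn, the difference ran from -0.26 to 3.55 for OsPCL1, -4.67 to 0.24 for HSFA2A, -0.10 to 3.41 for COC1, -1.11 to 1.86 for OsC3H60, -1.37 to 1.17 for HSFB2A, -0.53 to 0.12 for OsTIP1;1, -0.14 to 0.40 for OsPht1;1 and -0.73 to 0.27 for MT2C. The Gapdh covariate gave -0.22 for COC1 and -1.25 for OsC3H60. Median scaling gave 0.21 for HSFB2A, 0.11 for OsTIP1;1, 0.10 for HAK5, 0.09 for MT2C and 0.01 for PAL. Quantile normalization gave 0.09 for MT2C. OsPht1;1 was at -0.01 without leaf repeat 1 and -0.02 with scaling to the tested median. The causes were not tested. With 2 arrays a side, low signals on one side leave the size of a difference to the added constant.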

Other observations

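The iron and metal genes NAS1, NAS2, NAAT1 and Nramp1, 4 of the 46 tested in that list, had lower signals in the 10-day seedling than in both 7-day organs, which is given as values without a test. NAS1 was at 782 and 436 in the seedling arrays, NAS2 at 491 and 211, NAAT1 at 847 and 1158 and Nramp1 at 159 and 104. Each of these lies under the lowest of the 4 leaf and root signals given above for its gene. The small heat shock gene OsHsp24.1 went the other way, at 5269 and 4555 in the seedling arrays against 419 and 308 in leaf and 1189 and 2093 in root. These 5 genes were chosen after their values were seen.

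One annotated gene had tested probe sets called in opposite directions between leaf and root, so the symbol of a probe set does not settle which transcript it reads there.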
